A study of Mus musculus with 7 samples.

Results

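The GATA factors GATA1, GATA2 and GATA3, encoded by Gata1, Gata2 and Gata3, and their cofactor FOG1, encoded by Zfpm1, were read in lung regulatory T (Treg) cells. The 4 genes were found by their symbols among the 19736 symbols that each deposited file lists, and all 4 passed the filter on low values described below. They had been picked with the contrast of CCR6+ against CCR6- cells in view, above all for Gata1, which is set beside Gata3. Their values in that contrast are therefore given as a description, with no test.

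The data are RNA-seq of 7 libraries of sorted Foxp3-EGFP+ cells from total lung digests, 3 of CCR6+ and 4 of CCR6- cells, where EGFP reports the Treg transcription factor Foxp3 and CCR6, a chemokine receptor, binds CCL20. All mice were females of 5 to 7 weeks with the reporter Foxp3EGFP and the allele Il4raR576 of the gene Il4ra, which the CCR6- cells carry as well, so none of these comparisons bears on that allele. They all received 100 µg of ovalbumin intraperitoneally, a second injection 2 weeks later, 1% ovalbumin aerosol for 30 min a day on 3 days from day 29, and were killed on day 32. Whether libraries came from separate or pooled mice is not stated, so the spread between libraries may be technical.

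GATA factors are zinc finger proteins named after the DNA word that they bind. GATA3 is the factor of T cell development, of TH2 helper cells and of group 2 innate lymphoid cells, and Treg cells in tissues use it as well. GATA1 drives red cells, megakaryocytes, mast cells and eosinophils, and GATA2 drives blood stem cells, mast cells and endothelium. FOG1 has no DNA word of its own: it binds the N-terminal finger of a GATA factor and brings corepressors such as NuRD, a remodelling and deacetylase complex. The C-terminal finger makes the main contact with DNA.

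The coding stretches of both fingers are shown because all 3 GATA genes carry them, which bears on whether the genes' reads can be told apart. They are taken from GENCODE mouse release M21 transcripts, run from the first to the last zinc-binding cysteine codon, read 5′ to 3′ in the coding sense, and carry in capitals each base that is not shared by all 3 genes. The stretches for the N-terminal finger, the one that FOG1 holds, are:
Gata1: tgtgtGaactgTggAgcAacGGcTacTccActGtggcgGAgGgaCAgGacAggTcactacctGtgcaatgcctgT
Gata2: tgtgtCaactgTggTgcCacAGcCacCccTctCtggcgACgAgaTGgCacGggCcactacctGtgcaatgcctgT
Gata3: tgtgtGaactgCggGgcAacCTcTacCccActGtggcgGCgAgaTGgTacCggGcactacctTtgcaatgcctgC
The stretches for the C-terminal finger, the one that reads DNA, are:
Gata1: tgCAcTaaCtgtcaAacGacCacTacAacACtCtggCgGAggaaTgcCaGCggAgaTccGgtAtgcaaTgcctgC
Gata2: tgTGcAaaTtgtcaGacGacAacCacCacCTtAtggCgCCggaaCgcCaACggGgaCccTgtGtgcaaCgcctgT
Gata3: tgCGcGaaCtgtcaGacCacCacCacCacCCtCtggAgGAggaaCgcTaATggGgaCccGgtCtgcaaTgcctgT
Each stretch has 75 bases inside 1 coding exon, exon 4 for the N-terminal and exon 5 for the C-terminal finger, with mm10 positions chrX:7961984-7962058 and chrX:7960607-7960681 on the minus strand for Gata1. Those of Gata2 are chr6:88202430-88202504 and chr6:88204610-88204684 on the plus strand, and those of Gata3 chr2:9868821-9868895 and chr2:9863119-9863193 on the minus strand. Of the 75 bases, 20 differ among the 3 genes in the N-terminal and 25 in the C-terminal finger. Gata1 and Gata3 share 61 and 59 of them, Gata2 and Gata3 60 and 60, and Gata1 and Gata2 59 and 54. Over all annotated transcripts, the longest run of bases that Gata1 shares exactly with Gata3 is 14, and that with Gata2 is 23. The longest between Gata2 and Gata3 is 17.

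The libraries held between 11607780 and 47261246 recovered reads, which could be read back from the deposited normalised counts (reads divided by 1 factor per library). Ccr6, the sorted gene, stood between 2750 and 7309 normalised counts in CCR6+ and between 271 and 909 in CCR6- libraries. Of 11 Treg and CD4 T cell markers none was at 0 in any library, and their summed level ran from 134485 to 353097 in CCR6+ and from 269942 to 296513 in CCR6- libraries. The lowest of these sums was that of CCR6+ replicate 2. That library stood apart: it had the fewest reads, 2.16% of the symbols at 0 against 6.89% to 29.7% in the others, and a sum of 10 endothelial and stromal markers of 60623 against 5540 to 9754 in the other 6. The same library also had the largest sums of lung epithelial markers (75902 against 1738 to 11435) and of B cell markers (5928 against 549.9 to 5882). Macrophage and monocyte markers without Ccr2, a gene that T cells also express and that was set apart after its values were seen, had sums of 17587, 75739 and 8871 in CCR6+ replicates 1 to 3, against 923 to 14301 in CCR6- libraries. The part of these cells in the results was not tested. For the 4 members and the list medians, values are given with and without CCR6+ replicate 2. CCR6- replicate 4 also differed, with the most reads and the largest share of symbols at 0 (29.7%). Among its Treg and CD4 T cell markers Foxp3 stood at 19376 against 30878 to 39097 in the other CCR6- libraries. Lck stood at 97712 there against 44523 to 48334. The marker sum was the highest of the CCR6- libraries, with Lck its largest term. Ctla4, Cd3e and Cd4, like Foxp3, were lowest there among CCR6- libraries, while Ikzf2, Tnfrsf18 and Tnfrsf4 were highest. By mean log2 value the 11 markers stood at 14.44 there, against 14.32 to 14.54 in the other CCR6- libraries. What sets this library apart was not tested.

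Gata1 was lower in every CCR6+ library than in any CCR6- library. It stood at 116, 146 and 290.3 normalised counts in CCR6+ replicates 1 to 3 and at 613, 678, 824 and 1153 in CCR6- replicates 1 to 4. The lowest CCR6- library was thus above the highest CCR6+ library, and the groups did not overlap. The means were 184 ± 93 (SD, n = 3) and 817 ± 241 (SD, n = 4), the CCR6- mean being 4.44 times the other. The log2 difference, CCR6+ minus CCR6- on log2(normalised count + 1), was -2.21 (SE 0.39) and was -2.10 without CCR6+ replicate 2. Among the 14582 genes with at least 10 normalised counts in at least 3 libraries, 5.53% were lower with no overlap. As the gene was chosen for this contrast, nothing is read from that share. In a bulk sample, fewer cells with Gata1 RNA and less Gata1 RNA per cell cannot be told apart. The values rested on 135, 64 and 286 recovered reads in the CCR6+ and on 648, 818, 896 and 1703 in the CCR6- libraries. Gata1, with the identifier ENSMUSG00000031162.14, is a protein-coding gene on mm10 chromosome X from 7959260 to 7978071, and none of its exonic bases overlaps another annotated gene.

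**Figure D1:**
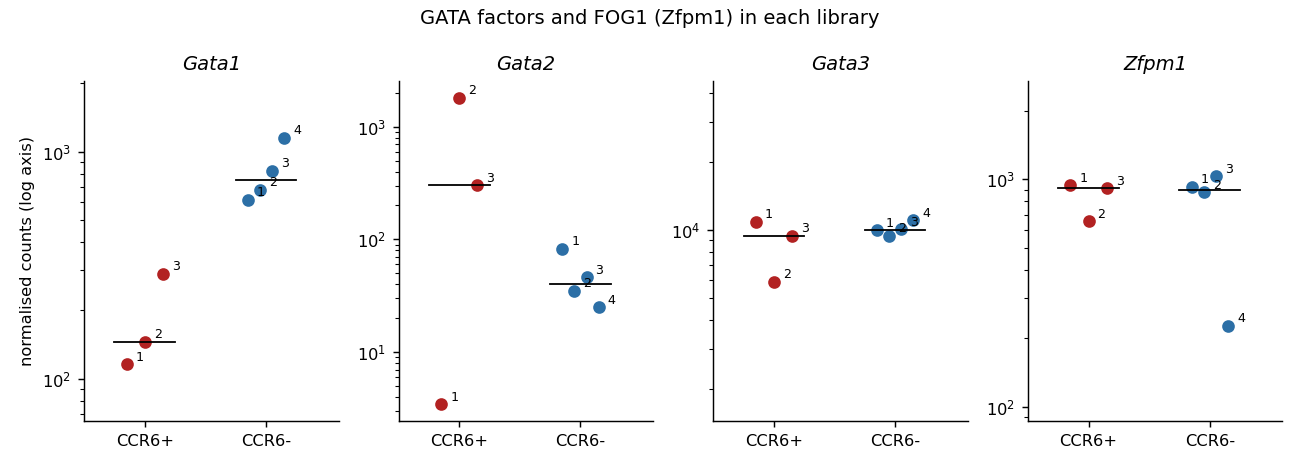
Normalised counts (log axis) of Gata1, Gata2, Gata3 and Zfpm1 in each library, with CCR6+ libraries in red, CCR6- libraries in blue, the replicate number beside each point and a bar at the group's median. The Gata1 groups are apart (116 to 290.3 against 613 to 1153), Gata2 is widest among CCR6+ libraries (3.44 to 1813), and Zfpm1 is lowest in CCR6- replicate 4 (227).

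Gata3 was the most abundant of the 4 genes in every library. It stood at 10854, 5921 and 9405 normalised counts in CCR6+ replicates 1 to 3 and at 9959, 9402, 10046 and 11027 in CCR6- replicates 1 to 4. The values of 6 libraries lay close together, and CCR6+ replicate 2 was the low one, as it was for the Treg marker sum. The means were 8727 ± 2536 (SD, n = 3) and 10109 ± 675 (SD, n = 4), and the groups overlapped. The log2 difference was -0.26 (SE 0.24), and 0.0016 with CCR6+ replicate 2 left out, and no direction is given. Gata3 (ENSMUSG00000015619.10) is protein coding on chromosome 2 from 9857078 to 9890034. Of its exonic bases 5.83% overlap the noncoding genes Gm13256, on the other strand, and 9230102O04Rik. The values of 9230102O04Rik did not pass 6.09 in any library.

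Per kilobase of annotated exon, the scale on which genes can be set side by side, Gata1 was a larger share of Gata3 in CCR6- cells. On this scale it was 1.74%, 4.01% and 5.04% of Gata3 in CCR6+ replicates 1 to 3, against 10.04%, 11.8%, 13.4% and 17.1% in CCR6- replicates 1 to 4. As for Gata1 itself the groups did not overlap, with means of 3.6 ± 1.69% (SD, n = 3) and 13.1 ± 2.99% (SD, n = 4). This ratio holds within a library, so the scaling between libraries does not enter it, but it uses the Gata1 values that the gene was chosen by. On the same scale Gata3 lay above 94.9% to 96.8% of the 14145 kept genes with a known exonic length. Gata1 lay above 64.0% to 75.4% of them in CCR6- and above 23.3% to 50.2% in CCR6+ libraries. In CCR6- replicates 1 to 3, Gata1 and Zfpm1 were close, at 94.9% to 115% of Zfpm1 per kilobase. In CCR6+ libraries Gata1 reached 17.7% to 45.6% of Zfpm1.

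Zfpm1 was even over 6 of the libraries and low in 1. It stood at 941, 653 and 916 normalised counts in CCR6+ replicates 1 to 3 and at 928, 878, 1031 and 227 in CCR6- replicates 1 to 4. The low value, 336 recovered reads in the deepest library, belongs to CCR6- replicate 4, the library in which Gata1 was highest. The group means were 836 ± 159 (SD, n = 3) and 766 ± 365 (SD, n = 4), with overlap. The log2 difference of 0.32 (SE 0.57) became -0.19 when CCR6- replicate 4 was dropped, or 0.49 when instead CCR6+ replicate 2 was, and no direction is given. The order of the libraries by Gata1 was thus not their order by Zfpm1. Zfpm1 (ENSMUSG00000049577.15) is protein coding on chromosome 8 from 122282141 to 122337251, with no exonic overlap.

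Gata2 was low in most libraries and highest in CCR6+ replicate 2, the library with the largest sums of endothelial, epithelial, macrophage, B cell, platelet and mast cell markers. It stood at 3.44, 1813 and 302 normalised counts in CCR6+ replicates 1 to 3 and at 82.3, 34.8, 46.0 and 25.04 in CCR6- replicates 1 to 4. CCR6+ replicate 1 was the lowest of all 7 and replicate 2 the highest, so that the CCR6+ libraries enclosed the CCR6- libraries. The means, 706 ± 970 (SD, n = 3) and 47.0 ± 25.01 (SD, n = 4), are set by replicate 2. The log2 difference was 1.62 (SE 1.96), and no direction is given: it was -0.25 without that library and 4.09 without CCR6+ replicate 1. On the recovered reads it was 3.75 with edgeR and 3.89 with DESeq2. Gata2 (ENSMUSG00000015053.14) is protein coding on chromosome 6 from 88193891 to 88207032, with no exonic overlap.

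The endothelial genes Kdr, a VEGF receptor, and Vwf, von Willebrand factor, were highest in the same library. Kdr stood at 263, 6845 and 696 normalised counts in CCR6+ replicates 1 to 3 and at 50.1 to 183 in the CCR6- libraries. Vwf stood at 15.5, 5719 and 467 in CCR6+ replicates 1 to 3 and at 0 to 158 in the CCR6- libraries. Kit, the stem cell factor receptor of mast cells and progenitors, stood at 630, 6349 and 1341 in CCR6+ replicates 1 to 3 and at 176 to 611 in the CCR6- libraries. All 3 were highest in CCR6+ replicate 2, as Gata2 was. The summed level of the 10 mast cell and basophil markers was 1177 to 9809 in CCR6+ and 359 to 967.5 in CCR6- libraries. The part of endothelial, mast cell or any other of these cells' RNA in the Gata2 values was not tested.

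**Figure D2:**
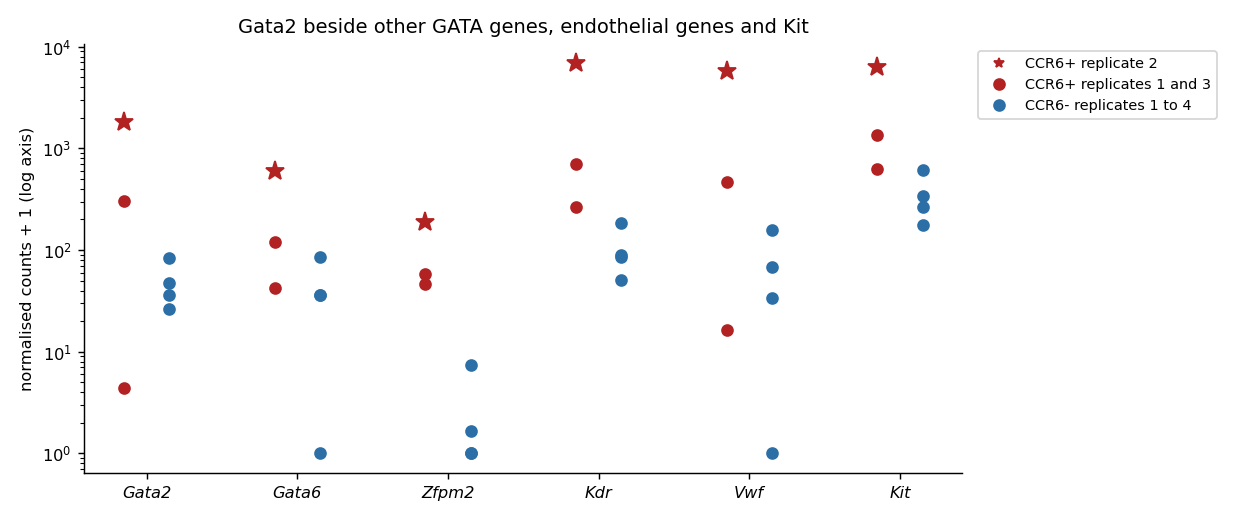
Normalised counts + 1 (log axis) of Gata2, Gata6, Zfpm2, the endothelial genes Kdr and Vwf, and Kit, with CCR6+ libraries in red, CCR6- libraries in blue and CCR6+ replicate 2 as a star. The star is the highest point of each gene, at 1813 for Gata2 and 6845 for Kdr (values before adding 1).

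Lists of partner, target and regulator genes were read from the same fit, in which 0% of the 14582 genes passed limma's Benjamini-Hochberg adjustment in either direction. At an unadjusted p under 0.05, 8.22% were higher in CCR6+ cells and 2.35% lower. The quasi-likelihood test of edgeR on the recovered reads called 2 genes (0.0137%) higher and 0 lower, and DESeq2 called 543 (3.72%) higher and 136 (0.933%) lower. Groups did not overlap for 7.96% of the genes in the higher direction, for 5.53% in the lower and for 13.5% in either. Log2 differences were positive for 8294 of the 14582 genes and negative for 6288. Their median was 0.097, and 0.037 without CCR6+ replicate 2. These all-gene values are the background for the counts and medians of each list.

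A list of 6 further GATA and FOG genes held 4 that could be tested. Gata4 and Gata5, factors of heart and gut, did not reach the level of the tested genes and were at most 54.6 and 123 normalised counts, both in CCR6+ replicate 2. Gata6, a factor of lung epithelium and of some macrophages, stood at 41.2, 605 and 119 in CCR6+ replicates 1 to 3 and between 0 and 83.7 in CCR6- libraries. Zfpm2, encoding FOG2, stood at 45.5, 189 and 56.8 in CCR6+ replicates 1 to 3 and between 0 and 6.44 in CCR6- libraries. It was below the mean asked of named genes and is given after its values were seen. Trps1, an atypical GATA repressor, was at 1052 ± 513 (SD, n = 3) against 673 ± 231 (SD, n = 4), and Gatad1, a chromatin protein with a GATA finger, at 392 ± 37 against 384 ± 75. Without CCR6+ replicate 2 the log2 difference of Trps1, 0.58, was 0.23. Of the 4 genes tested in this list, all had positive log2 differences and 0 passed the adjustment over all genes (limma with Benjamini-Hochberg adjustment, smallest adjusted p 0.297). Their median was 1.79, and 1.10 without CCR6+ replicate 2, against 0.097 and 0.037 over all genes tested. Zfpm2 alone did not overlap, where 7.96% of all genes were higher with no overlap. It passed the filter on low values only through the CCR6+ libraries, so its lack of overlap was fixed by the filter. Nothing is read from that, nor from the smallest adjusted p, which is that of Zfpm2. The median of 1.79 includes it as well. With a mean of at least 100 asked instead, which leaves Zfpm2 out, the median was 0.58.

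GATA1 and GATA2 work in a complex with SCL, LMO2 and LDB1. Of 8 tested genes of this complex 4 were positive and 4 negative, with 0 past limma's adjustment in either direction (smallest adjusted p 0.374), and 2 at an unadjusted p under 0.05 above and 1 below. Over all genes 8.22% were above and 2.35% below at that p. The median was -0.04, and 0.08 without CCR6+ replicate 2, against 0.097 and 0.037 over all genes. Tal1, which encodes SCL, and Lyl1, its relative, were below the level of tested genes. Tal1 did not exceed 45.5 normalised counts and was listed at 0 in 3 libraries. Lmo2, the bridging LIM protein, stood at 326, 1447 and 375 in CCR6+ replicates 1 to 3 and at 199 to 254 in CCR6- libraries. Cbfa2t3, the corepressor ETO2, stood at 167.5, 1080.5 and 194 in CCR6+ replicates 1 to 3 and at 30.3 to 83.2 in CCR6- libraries. For both genes the groups were apart, where 7.96% of all genes were higher with no overlap, and CCR6+ replicate 2 was again highest. In the other direction Ssbp2, which stabilises LDB1, was even within CCR6+ cells, at 728, 717 and 741, against 1272, 1284, 1275 and 1937 in CCR6- replicates 1 to 4. Its log2 difference of -0.96 (SE 0.21) was -0.95 without CCR6+ replicate 2, and it did not pass (limma adjusted p 0.374). Its groups were apart as well, where 5.53% of all genes were lower with no overlap. Its paralogue Ssbp3 stood at 2992 ± 801 (SD, n = 3) against 3784 ± 1136 (SD, n = 4).

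The corepressors that FOG1 brings were expressed in every library, with small negative differences for most. Of the 15 genes of the NuRD and CtBP list 13 were negative and 2 positive. In either direction 0 passed limma's adjustment (smallest adjusted p 0.462), and 1 was negative at an unadjusted p under 0.05. At that p 2.35% of all genes were negative. With no overlap 2 of the 15 were lower, where 5.53% of all genes were. The median log2 difference was -0.22, and -0.19 without CCR6+ replicate 2, against 0.097 and 0.037 over all genes. Chd3, a remodelling ATPase, was at 3276 ± 978 (SD, n = 3) in CCR6+ and 4844 ± 944 (SD, n = 4) in CCR6- libraries, and Hdac1, a histone deacetylase, at 1396 ± 378 against 1983 ± 345. Ctbp2, the second CtBP corepressor, stood at 41.2, 644 and 97.4 in CCR6+ replicates 1 to 3 and at 32.5 to 72.8 in CCR6- libraries, highest again in replicate 2. Mta1, a NuRD subunit, stood at 989, 721 and 867 in CCR6+ replicates 1 to 3 and at 993, 879, 998 and 312 in CCR6- replicates 1 to 4. It thus shared the low value of Zfpm1 in CCR6- replicate 4.

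The genes that GATA1 is known to switch on in red cells and megakaryocytes were not ordered over the libraries as Gata1 was. Of 13 tested genes 11 were positive and 2 negative, 0 passed limma's adjustment (smallest adjusted p 0.437) and 1 was positive at an unadjusted p under 0.05. At that p 8.22% of all genes were positive. The median of 0.64 moved widely, from 0.12 without CCR6+ replicate 2 to 1.53 without CCR6+ replicate 1, with 1.29 without CCR6- replicate 2. It was 1.37 with a mean of at least 100, 1.16 with edgeR and 1.31 with DESeq2, and turned to -1.29 with quantile normalization. Klf1, the erythroid partner of GATA1, was below the level of tested genes and did not exceed 6.44 normalised counts. It stood at 0, 4.55 and 0 in CCR6+ replicates 1 to 3 and at 2.84, 5.80, 6.44 and 5.41 in CCR6- replicates 1 to 4, with overlap. The globin gene Hbb-bs stood at 986, 77.3 and 18.3 in CCR6+ replicates 1 to 3 and at 262, 1537, 54.3 and 5.41 in CCR6- replicates 1 to 4. Its highest and lowest values both lay among CCR6- libraries, and the lowest was in replicate 4, where Gata1 was highest. Alas2, the erythroid enzyme of haem synthesis, stood at 805, 109 and 16.2 in CCR6+ replicates 1 to 3 and at 174, 464, 27.6 and 0.677 in CCR6- replicates 1 to 4. Hba-a1 and Hba-a2, the alpha globin copies whose reads may not be separable, had the lowest values of the list, with log2 differences of -0.60 (SE 2.06) and -0.50 (SE 2.00). Nfe2, a bZIP factor of the platelet lineage, stood at 134, 548 and 107 in CCR6+ replicates 1 to 3 and at 37.9 to 61.3 in CCR6- libraries. Its groups did not overlap, where 7.96% of all genes were higher with no overlap.

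The summed markers of the lineages that use GATA1 were not ordered as Gata1 either. The sum of 7 erythroid markers was 2383, 257 and 46.7 normalised counts in CCR6+ replicates 1 to 3, against 595, 2899, 121 and 13.5 in CCR6- replicates 1 to 4. The 8 megakaryocyte and platelet markers summed to 37.8 to 908 in CCR6+ and to 26.4 to 76.6 in CCR6- libraries. The 8 eosinophil markers summed to 1645 to 3498 and to 1306 to 2755. In every library but CCR6+ replicate 2 most of the latter sum was Ccr3, while the granule genes Prg2 and Epx did not exceed 1.72 and 6.82 normalised counts. In CCR6- replicate 4, where Gata1 was at 1153, the 4 sums of erythroid, platelet, mast cell and eosinophil markers were each the lowest of the 7 libraries. In that library 1 of 7 erythroid, 4 of 8 platelet, 3 of 10 mast cell and basophil and 5 of 8 eosinophil markers were at 0.

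**Figure D3:**
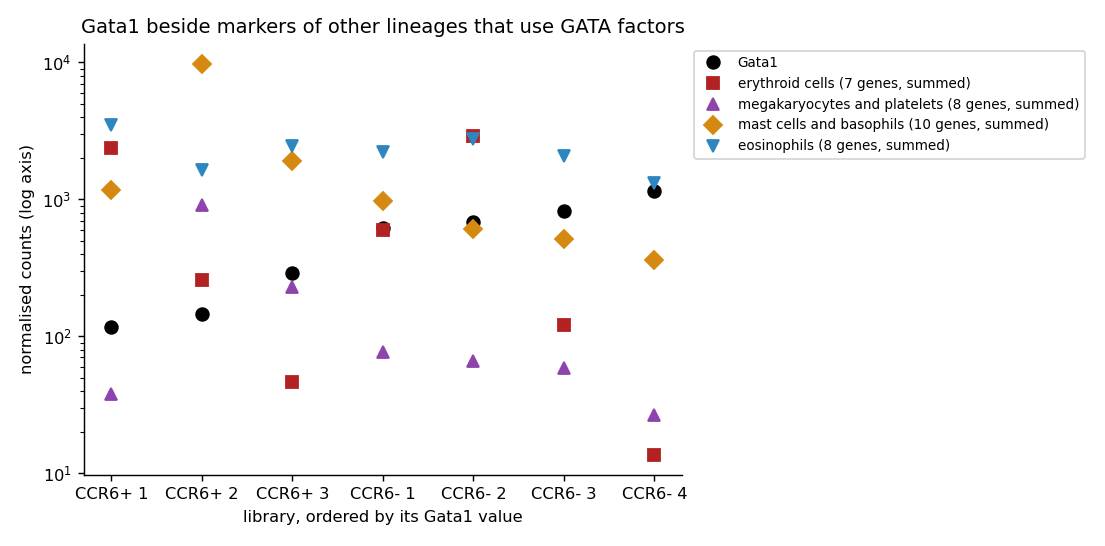
Gata1 and the summed normalised counts of erythroid, megakaryocyte and platelet, mast cell and basophil, and eosinophil markers (log axis) in the 7 libraries, ordered by their Gata1 value. At the right end CCR6- replicate 4 has the highest Gata1 (1153) and the lowest of each of the 4 sums, 13.5, 26.4, 359 and 1306.

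The list of mast cell, basophil and eosinophil genes had mostly positive differences. So had the marker lists of B cells, macrophages, lung epithelium, and endothelium and stroma. Erythroid markers went both ways, with 3 positive and 2 negative (median 0.062, and 0.33 without CCR6+ replicate 2). Positive were 8 of 8 B cell (median 2.14) and 9 of 9 macrophage markers (2.49), here with Ccr2, which T cells also express. So were 8 of 8 lung epithelial (1.84) and 10 of 10 endothelial and stromal markers (2.47). Without CCR6+ replicate 2 these medians were 1.68, 1.59, 0.71 and 1.05. The part of these cells in the list was not tested. Of the 12 tested mast cell, basophil and eosinophil genes 11 were positive and 1 negative. Past limma's adjustment were 0 (smallest adjusted p 0.449), and 3 were positive at an unadjusted p under 0.05. At that p 8.22% of all genes were positive. The median of 2.13 was 1.11 without CCR6+ replicate 2. Ms4a2, the beta chain of the IgE receptor, stood at 0, 339 and 83.2 in CCR6+ replicates 1 to 3 and at 0 to 16.6 in CCR6- libraries. The tryptase gene Tpsab1 stood at 0, 346 and 94.4 in CCR6+ replicates 1 to 3 and at 0.946 to 19.3 in CCR6- libraries. These mast cell genes were at 0 in CCR6+ replicate 1 and highest in replicate 2, so the CCR6+ group held both ends of the range. Cpa3, a mast cell carboxypeptidase, stood at 113 ± 152 (SD, n = 3) against 30.9 ± 47.4 (SD, n = 4), and Ccr3, the eotaxin receptor, at 1988 ± 1246 against 1885 ± 420. Without CCR6+ replicate 2 the log2 difference of Cpa3, 1.61, was 0.13, and that of Ccr3, -0.18, was 0.51.

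Genes of the GATA3 program were mostly positive while Gata3 itself was level. Of 13 tested genes of TH2, ILC2 and tissue Treg cells 11 were positive and 2 negative, with 0 past limma's adjustment (smallest adjusted p 0.302) and 1 at an unadjusted p under 0.05. Over all genes 8.22% were positive at that p. The median of 0.58 was 0.85 without CCR6+ replicate 2, against 0.097 and 0.037 over all genes. Hpgds, a prostaglandin D2 synthase, stood at 131, 173 and 121 normalised counts in CCR6+ replicates 1 to 3 and at 49.2, 35.6, 69.9 and 44.0 in CCR6- replicates 1 to 4. The groups were apart, with a log2 difference of 1.52 (SE 0.27) that did not pass (limma adjusted p 0.302). Of all genes, 7.96% were higher with no overlap. Ccr4, a chemokine receptor of TH2 and Treg cells, was at 6656 ± 3100 (SD, n = 3) against 3568 ± 1489 (SD, n = 4). Lowest of the list were Klrg1, a receptor of effector Treg cells and ILC2, at 7306 ± 4066 against 8873 ± 1191, and the chemokine receptor Ccr8 at 4745 ± 1707 against 5023 ± 1431. The differences of these 2 genes were positive without CCR6+ replicate 2, at 0.13 and 0.22. Those of Il5 and Pparg, 0.59 and 0.17, were negative without it, at -1.33 and -0.14. The cytokine genes Il4 and Il13 were below the level of tested genes and highest in CCR6+ replicate 2, at 187 and 56.9.

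Among the regulators of Gata3, Lef1 and Myb had the lowest differences, and their groups did not overlap. With no overlap 3 genes of the list were lower, Lef1 and Myb among them, and 1, Rbpj, was higher. Over all genes 5.53% were lower and 7.96% higher in this way. Of 19 tested genes 5 were positive and 14 negative, with 0 past limma's adjustment in either direction (smallest adjusted p 0.388), 1 positive and 3 negative at an unadjusted p under 0.05. Over all genes 8.22% were positive and 2.35% negative at that p. The median was -0.40, and -0.10 without CCR6+ replicate 2, against 0.097 and 0.037 over all genes. Lef1, a partner of TCF1 in WNT signalling, stood at 6101, 6895 and 6967 in CCR6+ replicates 1 to 3 and at 10955, 10436, 14410 and 15768 in CCR6- replicates 1 to 4. Myb, a factor of lymphocyte precursors and of effector Treg cells, stood at 1002, 837 and 1233 against 2210, 1848, 1771 and 1493. Neither passed (limma adjusted p 0.388 and 0.419). In the other direction Rbpj, the DNA-binding partner of Notch, was at 570 ± 190 (SD, n = 3) against 334 ± 44 (SD, n = 4) and Bcl6, a repressor of follicular helper cells, at 1010 ± 210 against 705 ± 127.

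**Figure D4:**
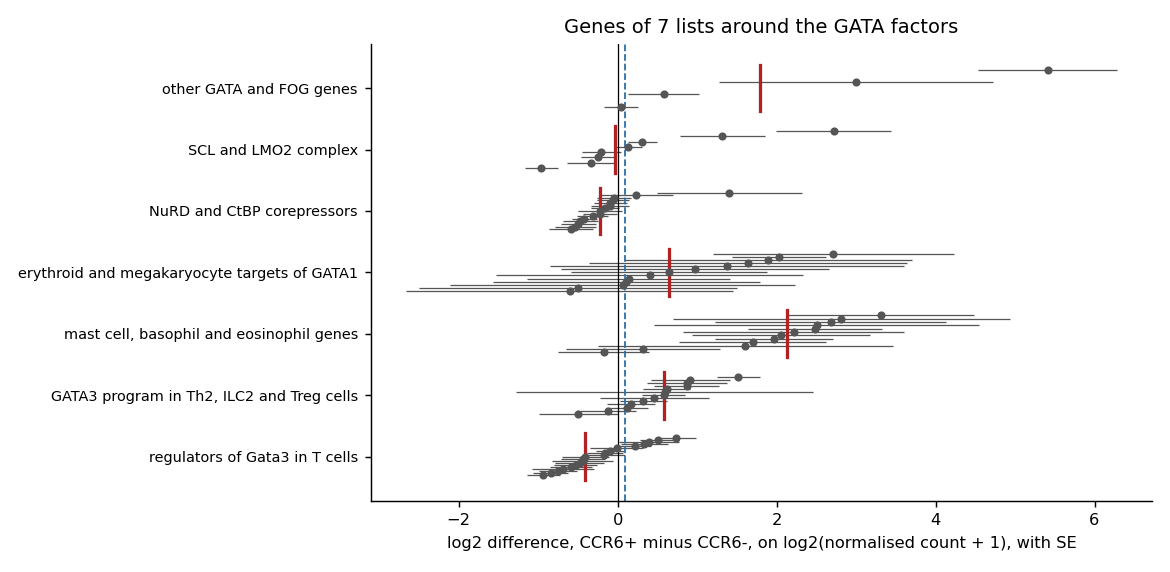
Log2 differences, CCR6+ minus CCR6- on log2(normalised count + 1), of the tested genes of 7 lists around the GATA factors, each a point with its SE. Red bars mark the list medians, from -0.40 for the regulators of Gata3 to 2.13 for the mast cell, basophil and eosinophil genes, and the dashed line marks the median of all tested genes, 0.097.

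The genes whose pattern over the 7 libraries was most like that of each member were found by Pearson's r of log2(normalised count + 1), among 11965 other named genes with a mean of at least 50. With 7 points from 2 groups these values describe and do not test. The 5 nearest to Gata1 were Wnt3, a secreted WNT ligand (r = 0.991), Slc35g1, a membrane transporter gene (0.986), Itm2a, a membrane protein gene of developing and activated T cells (0.972), H2-Ob, which encodes a chain of the MHC class II modulator H2-O (0.967), and Treml2, a TREM-like receptor gene (0.965). Wnt3 stood at 70.4, 81.9 and 134 normalised counts in CCR6+ replicates 1 to 3 and at 323, 289, 447 and 476 in CCR6- replicates 1 to 4. Without CCR6+ replicate 2 the 5 values of r lay between 0.968 and 0.988.

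The 5 nearest to Zfpm1 shared its low value in CCR6- replicate 4. They were Lrif1, Mta1, Abca1, a cholesterol exporter gene, Mcl1, which encodes a survival factor, and Prrc2a, with r from 0.990 to 0.995. Mcl1 stood at 11789 normalised counts in that library and between 22122 and 32634 in the other 6, and Prrc2a at 341 against 962 to 1395. The 5 nearest to Gata3 were Ppp4r2, a phosphatase subunit gene (r = 0.997), Crlf3, Rgs14, Riok1 and Rela, the NF-kB subunit p65 (r = 0.983), all lowest in CCR6+ replicate 2. Without that library r was between 0.791 and 0.964. The 5 nearest to Gata2, Spag4, Id4, St6galnac2, Nav1 and Gcnt3, had r of 0.979 to 0.983, and were all highest in CCR6+ replicate 2.

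**Figure D5:**
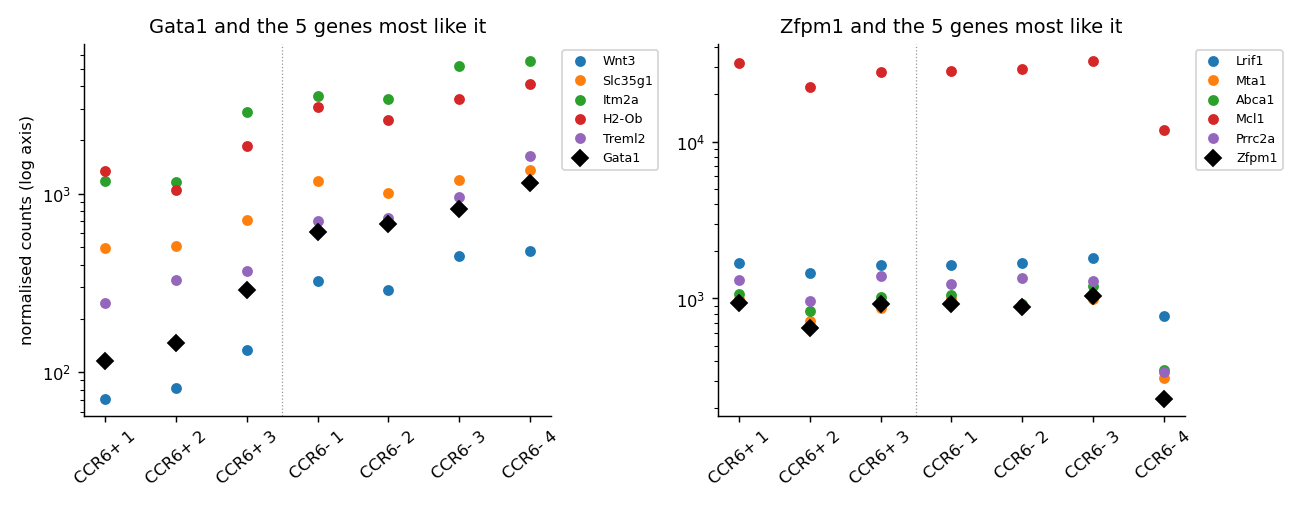
Normalised counts (log axis) in the 7 libraries of Gata1 (left, black) with Wnt3, Slc35g1, Itm2a, H2-Ob and Treml2, and of Zfpm1 (right, black) with Lrif1, Mta1, Abca1, Mcl1 and Prrc2a, CCR6+ libraries left of the dotted line. The genes on the left are low in the CCR6+ libraries with Gata1, and those on the right are lowest in CCR6- replicate 4 with Zfpm1 (227).

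Among themselves the 4 members had no common order over the 7 libraries. Pearson's r of their log2 values was 0.47 between Gata1 and Gata3, -0.37 between Gata1 and Zfpm1 and -0.19 between Gata1 and Gata2. Without CCR6+ replicate 2 these were -0.07, -0.49 and 0.33, so the first and the last changed sign. Between Gata2 and Gata3 it was -0.86, and -0.72 without that library. Between Gata3 and Zfpm1 it was -0.09, and -0.60 without it, and between Gata2 and Zfpm1 0.03 and 0.15. These 7 points share library and depth, so no p is given.

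The genes next to the members are given for their values over the same libraries. Hdac6, a cytoplasmic deacetylase gene that is 11212 bases from Gata1 by RefSeq's GRCm38.p6 table, stood at 1093, 1133 and 1470 normalised counts in CCR6+ replicates 1 to 3 and at 1530, 955, 1540 and 1963 in CCR6- replicates 1 to 4. Its groups overlapped, with a log2 difference of -0.25 (SE 0.28, limma adjusted p 0.678), against -2.21 for Gata1. Glod5, at 27537 bases on the other side of Gata1, did not exceed 18.2. Taf3, next to Gata3, stood at 1393 ± 96 (SD, n = 3) against 1853 ± 615 (SD, n = 4). Its other listed neighbour Celf2, 2460736 bases away, stood at 8308 ± 2003 against 8989 ± 855 and was lowest in CCR6+ replicate 2, as Gata3 was. Banp, next to Zfpm1, had its highest value in CCR6- replicate 4, at 2351 against 905 to 1878 elsewhere, while Zfpm1 was lowest there. Rpn1, next to Gata2, stood at 9363 ± 591 against 10511 ± 1081. Dnajb8 and Trhr2, next to Gata2 and Zfpm1 on their other sides, did not exceed 11.4 and 18.2, and Dnajb8 was above 0 in CCR6+ replicate 2 alone, the library with the highest Gata2.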

How the data were processed

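RNA of sorted cells was amplified with a SMART-Seq v4 kit, a low-input cDNA method, per the labels. Each deposited value is a signal, taken as the reads of a symbol divided by 1 factor that the authors applied per library: 100% of the values are whole multiples of 1 step within 0.001 reads, from which whole reads were recovered. The submitters' processing notes list, without role or order, the tools STAR 2.5.1b and HTSeq 0.6.1p1, further DESeq2 1.6.3, and mm10 as build. Annotation and strand use in counting are not stated. The members and gene lists were chosen with earlier results of these data known. Genes with at least 10 in at least 3 libraries were fitted with limma 3.58.1 in R 4.3.3, two-sided, on log2(value + 1), a scale that understates low genes, with Benjamini-Hochberg adjustment at 0.05. The fit was tested on simulated data. Alternatives were pseudocounts, filters, scalings, edgeR 4.0.16 and DESeq2 1.42.0 on recovered reads, a replicate block and each library left out. Named are the members, the 2 highest and 2 lowest of each list with a mean of at least 50, the 5 genes most like each member and the nearest listed neighbours. Further list and marker genes (Zfpm2, Gata4, Gata5, Tal1, Lyl1, Klf1, Hbb-bs, Prg2, Epx, Il4, Il5, Il13, Pparg, Kdr, Vwf, Kit, Foxp3, Lck, Ctla4, Cd3e, Cd4, Ikzf2, Tnfrsf18 and Tnfrsf4) were named after their values were seen. Exonic lengths and positions are those of GENCODE M21 on mm10.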

Additional observations from a re-analysis of the deposited data

Results flagged for a closer look

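The members, their ratios and the list means gave 29 sets of 4 CCR6- values, and in 4 of them a single library lay far outside the rest, an event that chance brings about in some 5% of sets. Groups of 3, such as CCR6+, cannot be examined in this way. Zfpm1 in CCR6- replicate 4 stood at 7.835 on the log2 scale against 9.779 to 10.01 in the others, while on the scale of normalised counts its gap, 0.809 of the range, stayed under the limit. The 2 ratios that hold this value went with it: Zfpm1 was at 2.342% of Gata3 per kilobase in that library against 10.58% to 11.65%, and Gata1 at 728.3% of Zfpm1 against 94.91% to 114.8%. The mean log2 value of the regulators of Gata3 in CCR6- replicate 2 was 11.96 against 12.17 to 12.20. No cause was tested for these.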

How the results depend on the processing

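The Gata1 log2 difference of -2.21 was negative in all 17 alternatives, from -2.60 to -1.94 with 1 library left out, and moved by more than the spread between libraries only with quantile normalization, to -3.25. Genes called higher, 0 with limma, became 1 with a pseudocount of 0.5, 2 with one of 8, 2 with a mean of at least 100, 1 with TMM scaling, 2 with quantile normalization, 2 with edgeR, 543 with DESeq2 and 0 to 1 with 1 library left out. Genes called lower became 2 with quantile normalization and 136 with DESeq2. Gata2, at 1.62, ranged from -0.25 to 4.09 with 1 library left out, and the sign of Gata2 and of Gata3 turned without CCR6+ replicate 2 (-0.25 and 0.0016), and that of Zfpm1 without CCR6- replicate 4 and with the replicate block (-0.19 each). The fit with the replicate number as a block leaves CCR6- replicate 4 without a partner, so it adds nothing to the difference, and the members' values equal those without it, as for Gata1 at -2.035. Same-numbered libraries correlated at -0.13, -0.11 and 0.34 in their deviations from the group means, and not every library correlated best with its own number, so the numbers were not taken to pair samples; the block called 0 genes. The median of the other GATA and FOG genes became 0.58 with a mean of at least 100. That of the NuRD and CtBP list, -0.22, became -0.14 with equal library totals, -0.32 with TMM scaling, -0.066 with quantile normalization, -0.29 with edgeR, -0.16 with the replicate block and -0.32 to -0.16 with 1 library left out. With quantile normalization the medians of the erythroid and megakaryocyte list, the mast cell, basophil and eosinophil list and the regulators of Gata3 became -1.29, 0.66 and -0.24, and the last was -0.51 to -0.10 with 1 library left out. That of the SCL and LMO2 list, -0.038, turned sign in 6 alternatives. The cause of these moves was not tested. The median of all genes, 0.097, lay between -0.082 and 0.43 under the other scalings and filters. The lowest member value, Gata2 in CCR6+ replicate 1, rests on 4 recovered reads.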
